A study of Mus musculus with 10 samples.

Results

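The genes described are 10 immediate early genes of the AP-1 and stress response, a set named gene by gene with no threshold on any measured value. They are FOS (ENSG00000170345), FOSB (ENSG00000125740), FOSL1 (ENSG00000175592), FOSL2 (ENSG00000075426), JUN (ENSG00000177606), JUNB (ENSG00000171223), EGR1 (ENSG00000120738), IER2 (ENSG00000160888), IER3 (ENSG00000137331) and DUSP1 (ENSG00000120129). They are 10 of the 33538 human genes in the count table, and all 10 were among the 16013 genes that passed the filter on low counts. Every library held at least 30 reads of each member.

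RNA came from flank tumours that the human medulloblastoma line DAOY formed in nude mice. It is an established cell line. Nude mice lack mature T cells and accept human grafts, and keep their other host cells. All samples were labelled female, and tumours were taken after 30 days of treatment. There were 3 libraries from the control arm on ordinary chow, 3 from the arm labelled DHA-oil (docosahexaenoic acid) and 4 from the arm labelled Fish-oil. The design names a mixture of DHA and eicosapentaenoic acid, and Fish-oil is read here as that arm. No genetic change, strain beyond nude, or age is given in the labels.

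Immediate early genes are transcribed within minutes of a growth factor or stress signal, without new protein synthesis, and their short-lived mRNAs decay soon after. MAP kinases act on factors already bound at their promoters, among them serum response factor with its ternary complex partners. FOS and JUN family proteins then pair as AP-1, which binds at the promoters of later genes, while DUSP1 removes the activating phosphates from the MAP kinases. In a whole tumour, a level in bulk RNA is an average over cells, and a change in the number of responding cells cannot be told apart from a change in RNA per cell.

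Total counts per library ran from 6187116 to 10035702. Fish oil replicates 4 and 2 stood apart on the first principal component of all genes tested, which held 26.4% of the variance, at -52.9 and -21.4 against -1.71 to 19.1 in the other libraries. No identifier of the table was matched to a name in the reference tables used here. The defining markers of DAOY and of host cells, and the other genes of the pathway, were therefore not analysed here, and their part in the results was not tested. Nothing in the sources used here says how reads of the mouse host were treated.

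FOS, the founding partner in AP-1, showed the largest contrast between diets of the 10 genes in fish oil against DHA oil. Its levels were 21.4, 17.6 and 41.8 CPM (read counts scaled to library size and composition) in control replicates 1, 2 and 3. They were 21.2, 20.9 and 25.4 CPM in the DHA oil replicates, and 49.0, 43.7, 88.3 and 19.7 CPM in the fish oil replicates. Fish oil replicates 1, 2 and 3 lay above every other library, whereas fish oil replicate 4 lay below every DHA oil library. The mean was 50.2 ± 28.5 CPM with fish oil (SD, n = 4). It was 26.9 ± 13.0 CPM in control and 22.5 ± 2.51 CPM with DHA oil (SD, n = 3 each).

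The level of FOS was 2.22-fold higher with fish oil than with DHA oil, a log2 fold change of 1.15 ± 0.38 (SE) with a 95% interval of 0.34 to 1.97. This did not pass edgeR's quasi-likelihood test after Benjamini-Hochberg adjustment over 16013 genes (adjusted p = 0.875). Against control the log2 fold change of FOS was 0.90 (0.09 to 1.71) with fish oil and -0.25 (-1.12 to 0.61) with DHA oil, and neither was called by the same edgeR test (adjusted p = 0.9988 and 0.9999). Both comparisons use the same 3 control libraries. Without fish oil replicate 3 the log2 fold change was 0.73 against DHA oil and 0.47 against control. It was 1.42 against DHA oil without fish oil replicate 4, and 1.35 against control without control replicate 3. That omission also turned the value for DHA oil against control from -0.25 to 0.20. When low counts were left in, edgeR called FOS between the oils (log2 fold change 1.14, adjusted p = 0.0380), 1 of 14 genes called in that fit of 26038 (0.0538%).

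FOSB is the close relative of FOS whose splice form ΔFosB accumulates with repeated stimulation in the brain of mice. It was the least counted of the 10, with 30 to 139 reads a library. Its levels were 5.20, 5.88 and 19.2 CPM in the control replicates, 6.38, 2.93 and 9.90 CPM with DHA oil, and 15.1, 14.1, 9.90 and 3.72 CPM with fish oil. Libraries of a single diet spanned up to 4.05-fold, and every pair of diets overlapped. The largest difference was a log2 fold change of 0.74 (95% interval -0.37 to 1.84) between fish oil and DHA oil. Leaving out a DHA oil library moved it, to 0.38 for replicate 2 and 1.21 for replicate 3. Against control the interval for fish oil ran from -0.98 to 1.16 around 0.09.

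FOS and FOSB did not peak in the same library. FOS was highest in fish oil replicate 3 and FOSB in control replicate 3. There were 8.92 reads of FOS for each read of FOSB in fish oil replicate 3, and 2.17 in control replicate 3. In the other 8 libraries this ratio ran from 2.56 to 7.13.

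**Figure D1:**
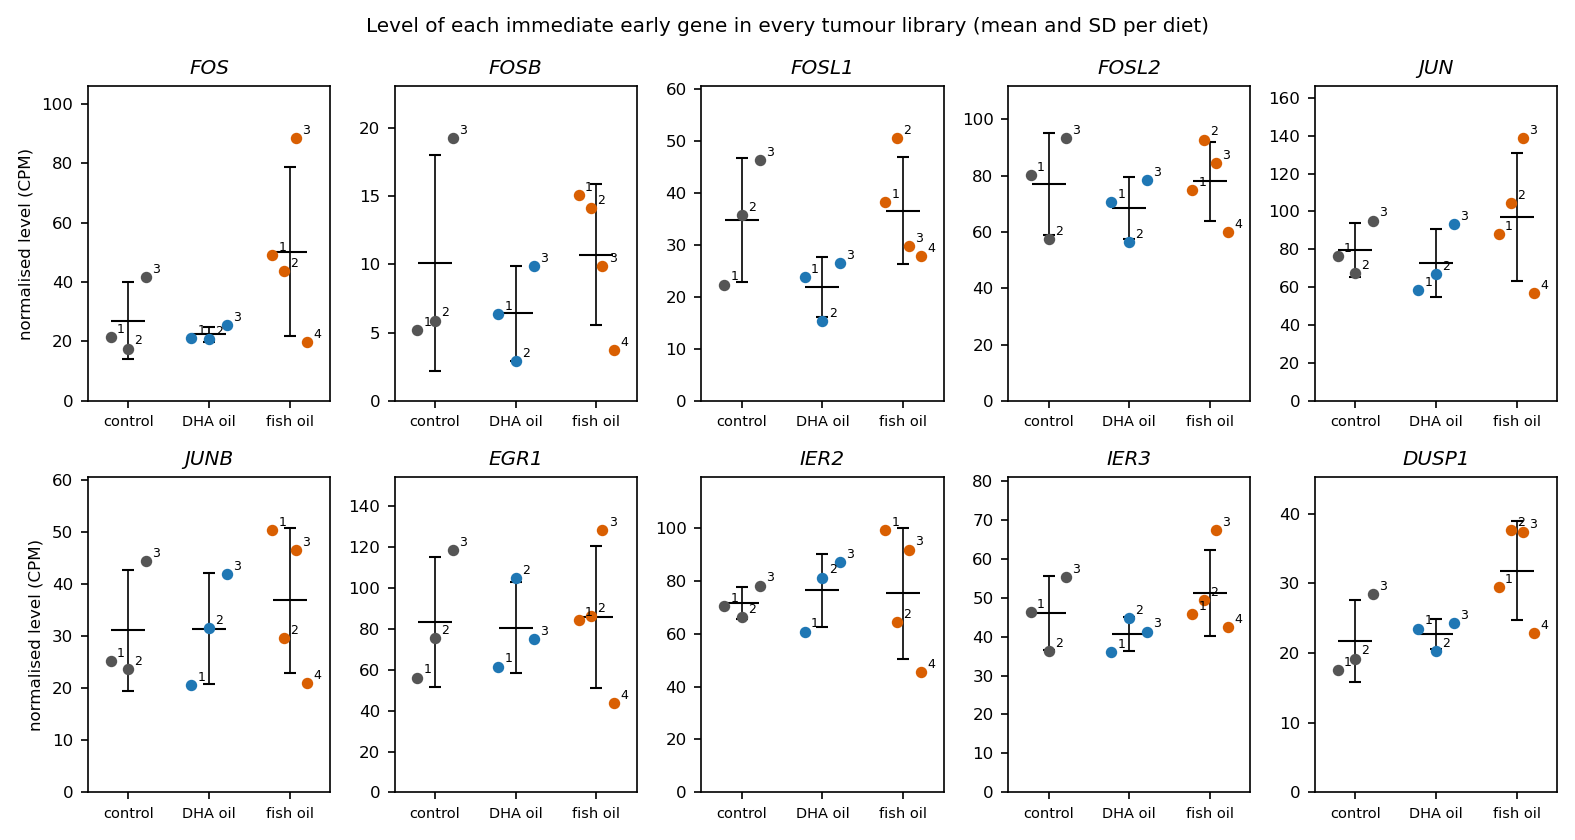
Level of each gene in CPM (y axis, from 0) in every tumour library by diet (x axis). Numbered points are replicates, bars the mean and SD of 3 control, 3 DHA oil or 4 fish oil libraries; FOS reaches 88.3 CPM in fish oil replicate 3 and stands at 19.7 CPM in fish oil replicate 4.

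FOSL1 (FRA-1), a FOS protein without the strong activation domain of FOS and a known product of sustained ERK signalling, was lowest with DHA oil. Its levels were 23.8, 15.3 and 26.5 CPM in the DHA oil replicates, 22.4, 35.7 and 46.3 CPM in control and 38.3, 50.5, 29.8 and 27.8 CPM with fish oil. All 4 fish oil libraries lay above all 3 DHA oil libraries, though the highest DHA oil value and the lowest fish oil value were close, at 26.5 and 27.8 CPM. It was the 1 member of 10 whose groups did not overlap in this comparison, beside 4.95% of all genes tested. Its log2 fold change for fish oil over DHA oil was 0.75 ± 0.26 (SE), with a 95% interval of 0.19 to 1.30, and was not called by edgeR (adjusted p = 0.875).

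Against control, FOSL1 had a log2 fold change of -0.67 (-1.26 to -0.07) with DHA oil and 0.08 (-0.47 to 0.63) with fish oil, with no call by edgeR in either (adjusted p = 0.9999 and 0.9988). The DHA oil value was -0.41 without control replicate 3 and -0.46 without DHA oil replicate 2. The control libraries alone spanned 2.07-fold.

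FOSL2 (FRA-2), the other FOS protein of this kind, had the narrowest range of the 10 genes. It ran from 56.5 CPM in DHA oil replicate 2 to 93.2 CPM in control replicate 3, a 1.65-fold span. Its levels were 80.2, 57.5 and 93.2 CPM in the control replicates, 70.6, 56.5 and 78.4 CPM with DHA oil and 74.8, 92.8, 84.4 and 59.9 CPM with fish oil. The log2 fold change against control was -0.17 with DHA oil (95% interval -0.58 to 0.24). With fish oil it was 0.02 (-0.36 to 0.40), and both intervals include 0.

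JUN, the partner that can bind DNA with FOS or as a pair of JUN proteins, had the highest correlation with FOS of the members over the 10 libraries. Its levels were 76.6, 67.3 and 95.1 CPM in the control replicates, 58.6, 67.0 and 93.2 CPM with DHA oil, and 88.2, 104, 138 and 57.0 CPM with fish oil. Fish oil replicates held both the highest and the lowest value of all 10 libraries, so the groups overlapped. The log2 fold change was 0.41 (95% interval -0.10 to 0.92) between fish oil and DHA oil and 0.28 (-0.23 to 0.80) between fish oil and control. Neither was called by edgeR (adjusted p = 0.875 and 0.9988). Leaving out 1 library moved the first from 0.19, without fish oil replicate 3, to 0.63, without DHA oil replicate 3. The second moved from 0.063, without fish oil replicate 3, to 0.47, without fish oil replicate 4.

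JUNB, a JUN protein that can dampen JUN at some promoters, had nearly equal means in control, at 31.1 ± 11.6 CPM, and DHA oil, at 31.4 ± 10.7 CPM (SD, n = 3 each). Its log2 fold change between them was 0.02, with an interval of -0.68 to 0.72 that still allows a difference in either direction. With fish oil it stood at 36.9 ± 14.0 CPM (SD, n = 4). The libraries of a single diet spanned 1.88-fold in control, 2.03-fold with DHA oil and 2.41-fold with fish oil.

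EGR1, a zinc finger factor induced through serum response factor, had the closest diet means of the 10 genes. They were 83.5 ± 31.9 CPM in control and 80.6 ± 22.2 CPM with DHA oil (SD, n = 3 each), and 85.8 ± 34.6 CPM with fish oil (SD, n = 4). Single libraries were far apart, at 56.2, 75.7 and 119 CPM in control, 61.6, 105 and 75.2 CPM with DHA oil and 84.5, 86.5, 128 and 43.7 CPM with fish oil. The highest and the lowest library were again fish oil replicates 3 and 4, a 2.94-fold span, while the highest and lowest diet means differed 1.06-fold.

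IER2, a small nuclear protein induced with FOS, lay between 45.5 CPM in fish oil replicate 4 and 99.1 CPM in fish oil replicate 1. Control libraries were tight, from 66.3 to 78.1 CPM, and lay within the range of both oils. For fish oil over DHA oil the log2 fold change of IER2 was -0.03 (95% interval -0.49 to 0.43), the 1 negative value of the 10 members in that comparison. Leaving out 1 library moved it from -0.19, without fish oil replicate 1, to 0.15, without fish oil replicate 4. It was 0.32 without fish oil replicates 2 and 4, a choice made after seeing the data. Those were also the lowest fish oil libraries for IER2.

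IER3 (IEX-1), which acts in survival signalling downstream of ERK and NF-kB, had the smallest SD within diets of the members. It ran from 36.1 CPM in DHA oil replicate 1 to 67.4 CPM in fish oil replicate 3. The means were 46.0 ± 9.49 CPM in control and 40.7 ± 4.38 CPM with DHA oil (SD, n = 3 each), and 51.2 ± 11.1 CPM with fish oil (SD, n = 4). Fish oil over DHA oil gave a log2 fold change of 0.33 (95% interval -0.04 to 0.70), not called by edgeR (adjusted p = 0.875). It was 0.17 without fish oil replicate 3.

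DUSP1 (MKP-1), the phosphatase that switches off the MAP kinases behind these genes, was highest on average with fish oil. Its levels were 17.6, 19.2 and 28.5 CPM in the control replicates, 23.5, 20.2 and 24.3 CPM with DHA oil, and 29.5, 37.7, 37.4 and 22.9 CPM with fish oil. Fish oil replicates 1, 2 and 3 were above every control and every DHA oil library, and fish oil replicate 4 was within both ranges.

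The log2 fold change of DUSP1 was 0.55 ± 0.20 (SE; 95% interval 0.12 to 0.99) with fish oil against control and 0.49 ± 0.20 (SE; 0.06 to 0.92) against DHA oil. Neither passed edgeR's quasi-likelihood test after adjustment (adjusted p = 0.9988 and 0.875). With DHA oil against control it was 0.06 (-0.40 to 0.52). Without control replicate 1 the value for fish oil against control was 0.41, and without control replicate 3 it was 0.79.

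**Figure D2:**
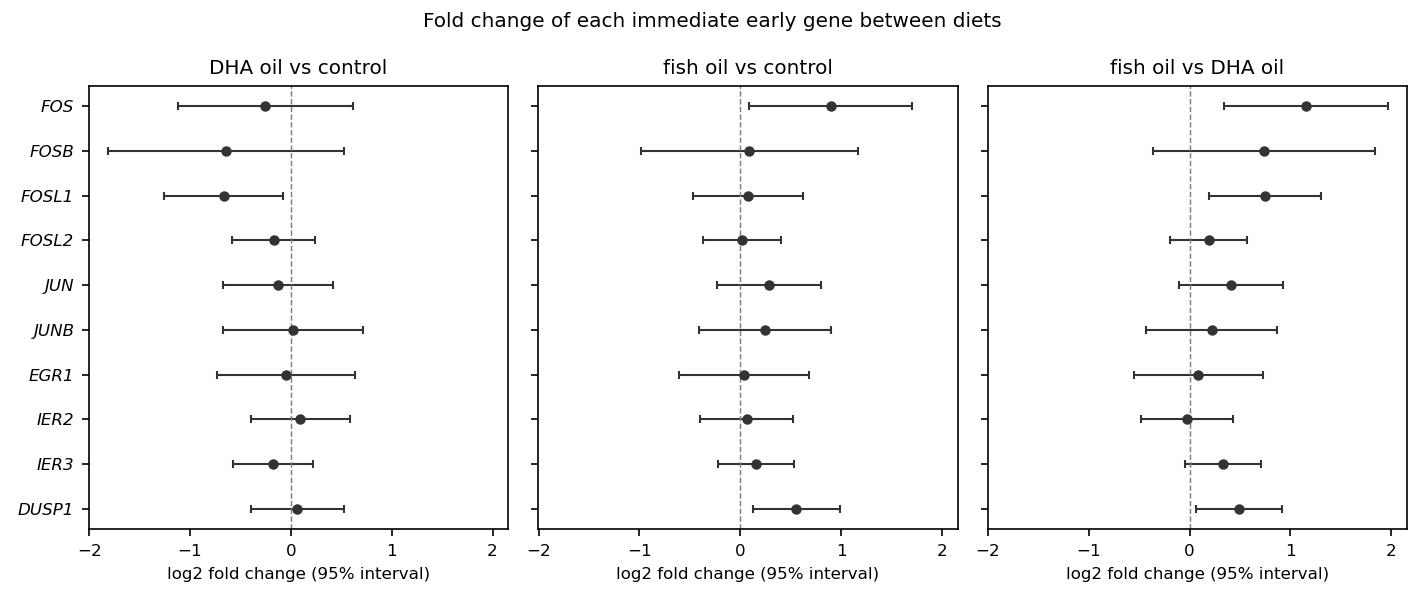
Log2 fold change of each gene (x axis, points) with its 95% interval (bars) in 3 comparisons between diets, from edgeR. The intervals of FOS, FOSL1 and DUSP1 leave out 0 between fish oil and DHA oil, but no gene passed adjustment over all genes tested. The fit draws each gene's spread toward that of other genes, so intervals can be too narrow for genes of high spread.

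Across the 4 comparisons, 0 of the 10 members passed edgeR's quasi-likelihood test at an adjusted p under 0.05. The share of all genes called was 0% for DHA oil against control, 0.00624% for fish oil against control, 0% for fish oil against DHA oil and 0.131% for both oils against control. DESeq2 also called 0 members, beside 0.0687%, 0.125%, 0.00624% and 0.169% of all genes in the same order of comparisons. Limma-voom, run with a quality weight for each library, called 0 members, beside 0.0187%, 0%, 0% and 0.00624%. At an unadjusted p under 0.05 by edgeR there were 1 member for DHA oil against control (FOSL1; 2.74% of all genes), 2 for fish oil against control (FOS and DUSP1; 3.48%), 3 for fish oil against DHA oil (FOS, FOSL1 and DUSP1; 4.84%) and 0 for both oils against control (2.62%). No member had groups free of overlap in DHA oil against control (10.6% of all genes), fish oil against control (3.74%) or both oils against control (1.12%).

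All 10 members had a log2 fold change above 0 for fish oil against control, with a median of 0.12 (0.02 to 0.90), where 51.5% of all genes tested were above 0 and their median was 0.01. The count was 6 of 10 without fish oil replicate 3, 7 without control replicate 1, control replicate 2 or fish oil replicate 2, and 8 without fish oil replicate 1. The median ran from 0.05 without control replicate 2 to 0.40 without control replicate 3. For fish oil against DHA oil 9 of 10 were above 0 (52.1% of all genes), with a median of 0.37 beside 0.01 for all genes. Leaving out 1 library, this median ran from 0.18 without fish oil replicate 3 (8 above 0) to 0.52 without DHA oil replicate 3 (10 above 0). Leaving out DHA oil replicate 1 put 7 above 0. Without fish oil replicate 4 all 10 were above 0, with a median of 0.51. Between DHA oil and control, 7 of 10 were below 0, with a median of -0.15 beside 0.0032 for all genes, of which 50.8% were above 0. Without control replicate 3 this turned, to 3 of 10 below 0 and a median of 0.18. Leaving out DHA oil replicate 1 gave 5 of 10 and -0.04. Taken without sign, the median log2 fold change with fish oil against control was 0.12 for the members and 0.13 for all genes. It was 0.37 and 0.14 between the oils, and 0.15 and 0.12 with DHA oil against control. The members move together within a library, as described next, so the counts above and below 0 are not 10 separate observations.

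Libraries of the same diet differed widely in these genes. Nothing ties libraries to separate mice, so this spread may lie between tumours or be technical. The SD of log2 CPM within diets, pooled over the 10 libraries, ranged from 0.26 for IER3 to 0.92 for FOSB, with a median of 0.43. The median of all genes tested was 0.24, and all 10 members lay above it. The SD was 0.68 for FOS, 0.55 for EGR1, 0.54 for JUNB, 0.44 for FOSL1, 0.42 for JUN, 0.37 for IER2, 0.31 for DUSP1 and 0.29 for FOSL2. The SD from read sampling alone would be 0.09 on the log2 scale for FOS and 0.19 for FOSB, and from 0.06 to 0.10 for the others.

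A gene's dispersion, the squared coefficient of variation beyond read sampling, can be set beside the trend that edgeR fits for genes of like level. The ratio was 8.93 for FOSB, 8.80 for FOS, 6.90 for EGR1 and 5.64 for JUNB. It was 4.03 for JUN, 3.62 for FOSL1 and 3.10 for IER2, and lowest for FOSL2 (1.90), DUSP1 (1.57) and IER3 (1.49). The median of all genes tested was 0.669, and 7 of the 10 members lay in the highest 10% of genes. In terms of variation between libraries, the coefficient was 45.2% for FOS and 60.2% for FOSB, against 15.2% and 20.1% on the trend.

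**Figure D3:**
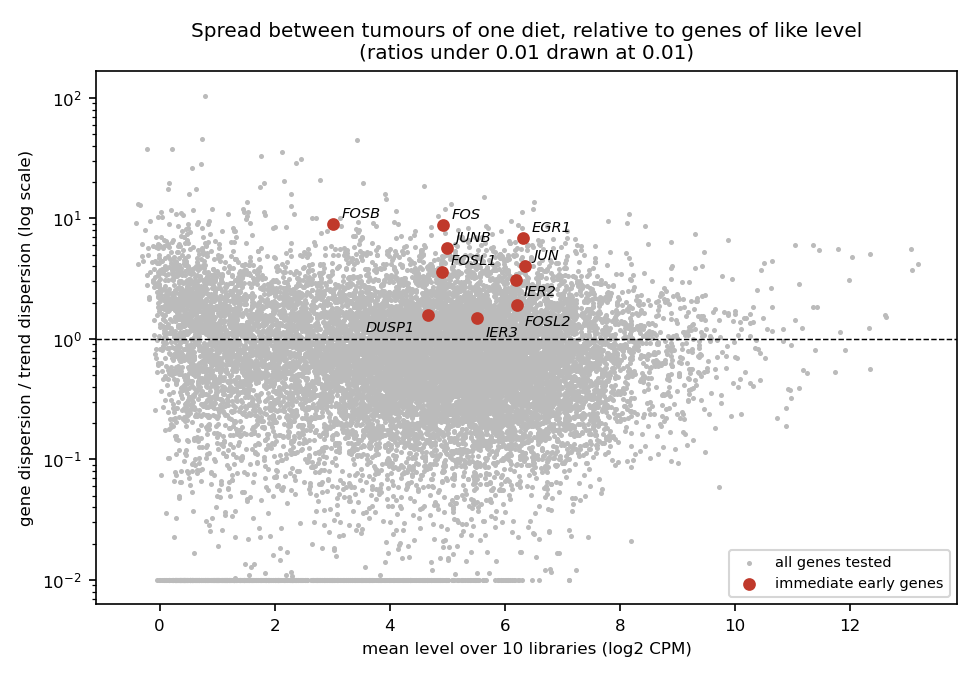
Each point is a gene, with its mean level over 10 libraries (x axis, log2 CPM) and its dispersion within diets divided by edgeR's trend (y axis, log scale; ratios under 0.01 drawn at 0.01). The 10 immediate early genes (red) lie above the dashed line at 1, with FOSB at 8.93 and FOS at 8.80.

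The median SD of the members was 0.43 in control, 0.31 with DHA oil and 0.52 with fish oil, beside 0.18, 0.16 and 0.27 for all genes tested. The SD of FOS was 0.15 with DHA oil, 0.65 in control and 0.88 with fish oil, and DUSP1 and IER3 were also tight with DHA oil, at 0.14 and 0.16. EGR1 had 0.54, 0.39 and 0.64, and IER2 0.12, 0.27 and 0.51. Whether the diets differ in spread was not tested. Within-diet ranges exceeded the ratio of the highest to the lowest diet mean in all 10 members, as in 98.2% of all genes tested.

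The members were high or low together in single libraries. All 10 stood above their own 10-library mean in control replicate 3 and in fish oil replicate 1, 9 of 10 in fish oil replicate 3 and 8 of 10 in fish oil replicate 2. In fish oil replicate 4 and DHA oil replicate 1 none was above its mean, and in control replicates 2 and 1 there were 1 and 2. The median deviation was 0.55 on the log2 scale in fish oil replicate 3, 0.40 in control replicate 3, and -0.56 in fish oil replicate 4. Over all genes tested it was 0.0052, 0.0029 and 0.0063 in the same libraries, as scaling between libraries keeps it near 0.

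DHA oil replicate 2 was mostly low, with 2 of the 10 above their mean and a median deviation of -0.30, and DHA oil replicate 3 was mixed. In replicate 2, FOSB stood at -1.35 from its mean on the log2 scale and FOSL1 at -0.95, the lowest of the 10 libraries for both, while EGR1 stood at 0.40. In replicate 3, 5 of the 10 were above their mean, with JUNB at 0.40 and FOS at -0.26. Of the fish oil libraries, replicate 3 held the highest value of 4 members (FOS, JUN, EGR1 and IER3) but had FOSL1 at its mean, with a deviation of -0.0045.

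**Figure D4:**
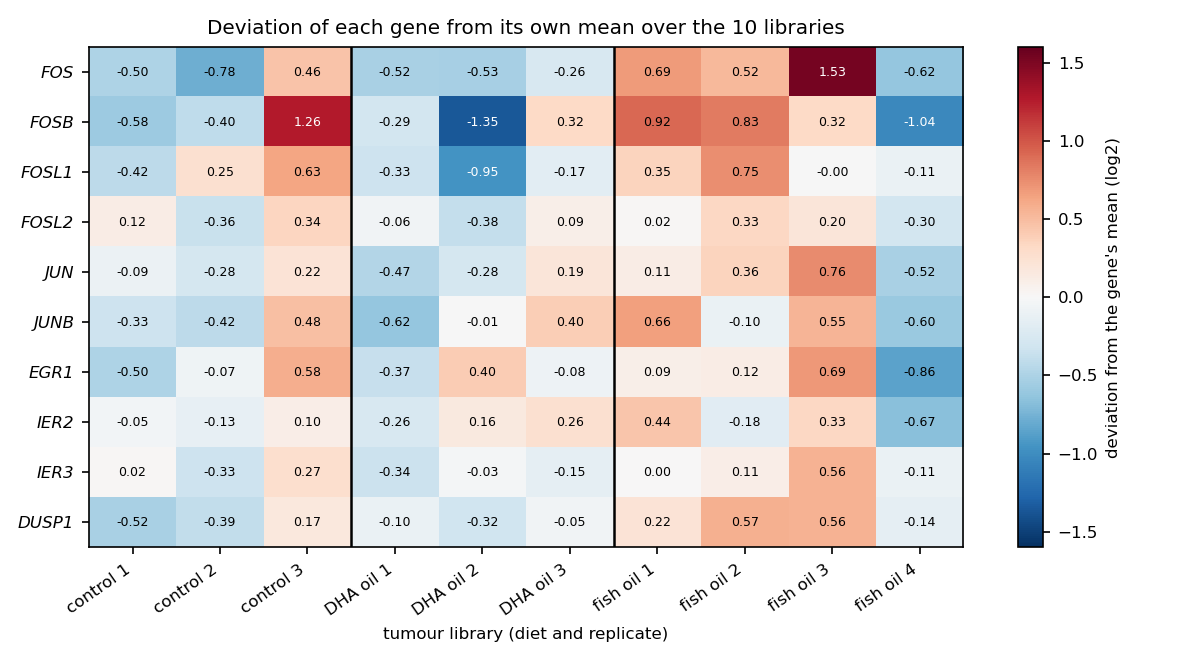
Deviation of each gene (rows) from its own mean over 10 libraries, on the log2 scale (colour and printed value), in every tumour library (columns; lines part the diets). Columns are mostly of one colour, red in control 3 and fish oil 3 and blue in fish oil 4, and FOS reaches 1.53 in fish oil 3.

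The share of all reads that fell on the 10 genes is scaled by the library total alone, and put the same libraries high. It comes from the same reads as the CPM values. The further scaling factors in CPM ran only from 0.9775 to 1.021, so the share is not a separate check. This share was 0.0723% in fish oil replicate 3, 0.0606% in control replicate 3, 0.0580% in fish oil replicate 1 and 0.0579% in fish oil replicate 2. It was lowest in fish oil replicate 4, at 0.0340%, and in DHA oil replicate 1, at 0.0384%. The other control and DHA oil libraries held 0.0397% to 0.0499%. Fish oil replicate 4, the lowest for these genes, was also the library farthest out on the first principal component, and fish oil replicate 2, second on that axis, was among the higher ones.

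Of the 45 pairs of members, all had a positive correlation of log2 CPM over the 10 libraries, with a median r of 0.66 (0.02 to 0.90). Over all pairs of genes tested the median was 0.00 and 49.8% were positive. An r above 0.5 was found in 32 of 45 pairs, or 71.1%, beside 12.4% of all pairs. JUN had the highest median correlation with the other members (0.76), and FOSL1 (0.46) and IER2 (0.47) the lowest. FOSL1 and IER2 were the least alike of all pairs (r = 0.02), while JUNB and IER2 were among the most alike (r = 0.88, rho = 0.92). These are descriptions over 10 libraries that share scaling factors and differ in depth.

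With FOS as the point of reference, JUN had r = 0.90 and rho = 0.84 (permutation p = 0.00069 and 0.0037, 2-sided), and DUSP1 had r = 0.89 and rho = 0.83 (permutation p = 0.00064 and 0.0051). IER3 followed with r = 0.86 and rho = 0.73 (permutation p = 0.0016 and 0.021). FOSL1 had the lowest r, at 0.49, with rho = 0.47 (permutation p = 0.15 and 0.18). Adjusted over the 16012 genes set against FOS, no relation passed (adjusted p = 0.933 for r in every member). At an unadjusted permutation p under 0.05 there were 7 of the 9 other members, beside 4.55% of all genes.

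By the size of r with FOS, JUN ranked 4, DUSP1 6 and IER3 8 of 16012 genes. JUNB ranked 74, FOSB 179, EGR1 210, FOSL2 217, IER2 649 and FOSL1 1257. Ahead of JUN stood 3 genes not annotated in the sources used here. The 2 highest were ENSG00000171502 (r = 0.94) and ENSG00000087074 (r = 0.91), with an adjusted permutation p of 0.933 each.

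Without fish oil replicates 3 and 1, the libraries farthest from the median of FOS, r was 0.84 for JUN, 0.87 for DUSP1 and 0.79 for IER3, 0.86 for FOSB and FOSL2, 0.71 for FOSL1, 0.63 for JUNB and 0.58 for EGR1. The unadjusted exact p was then 0.0044 for JUN, 0.0048 for DUSP1, 0.023 for IER3, 0.0059 for FOSB and 0.0022 for FOSL2. For JUNB (exact p = 0.085) and EGR1 (exact p = 0.14) it no longer passed with 8 libraries. IER2 dropped to 0.26 (exact p = 0.52). Without fish oil replicates 2 and 4, which stood apart on the first principal component, r was 0.94 for DUSP1, 0.89 for JUN, 0.80 for JUNB and 0.69 for EGR1. Taken as deviations from the diet means, so that differences between diets cannot enter, r was 0.90 for JUN, 0.85 for EGR1, 0.84 for DUSP1, 0.82 for JUNB, 0.78 for IER2 and 0.32 for FOSL1. Permuted freely over libraries, 4 members (JUN, JUNB, EGR1 and DUSP1) passed after adjustment (adjusted p = 0.031 to 0.048), beside 4.85% of all genes. Deviations sum to 0 within a diet, which free permutation ignores. Permuted within diets over all 864 arrangements, a choice made after seeing that result, 0 members and 0 of all genes passed (smallest adjusted p = 0.165). The smallest p that these arrangements allow is 0.00116. Many genes would have to share it for any to pass adjustment over 16012, so the 0 says little. By this exact permutation test 6 members had an unadjusted p under 0.05, beside 13.5% of all genes.

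**Figure D5:**
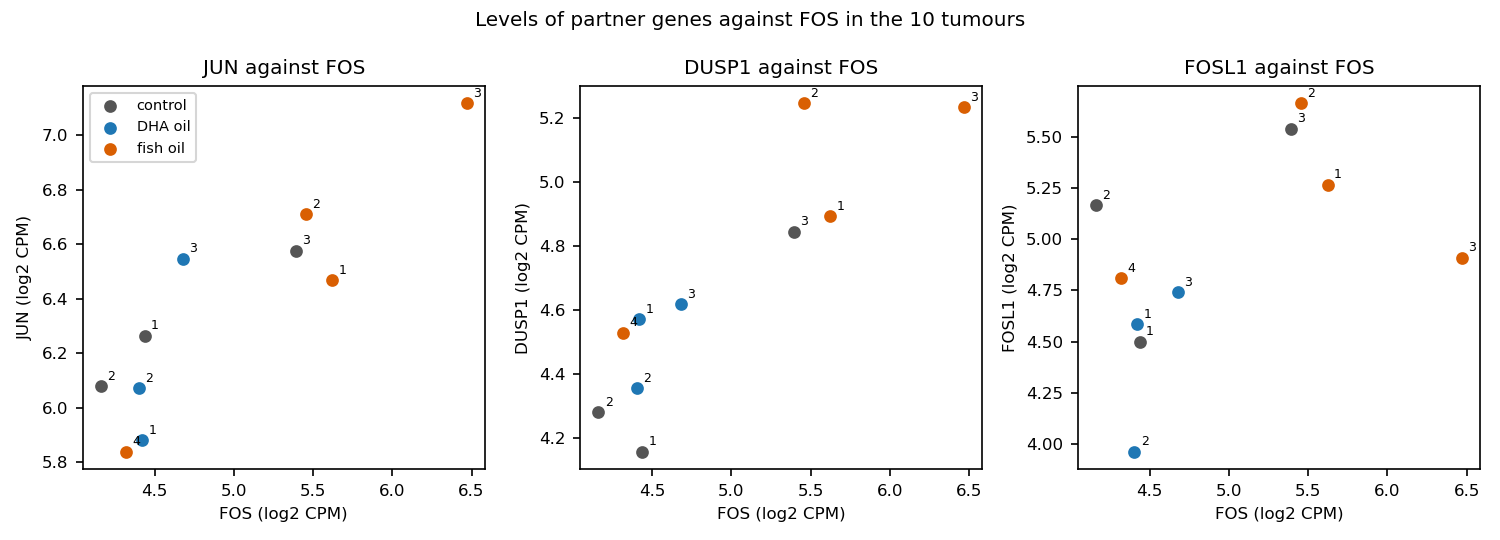
Level of JUN, DUSP1 and FOSL1 (y axes, log2 CPM) against FOS (x axis, log2 CPM) in the 10 tumour libraries, coloured by diet and numbered by replicate. JUN and DUSP1 increase with FOS (r = 0.90 and 0.89), with control replicate 3 among the fish oil libraries, and FOSL1 does so less (r = 0.49).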

How the data were processed

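The deposited values are raw counts per human Ensembl gene in 10 libraries, whole numbers with unequal totals. Per the submitters' processing notes, STAR and HTSeq 0.9.0 were used with GRCh38. A stranded mRNA kit and 75 bp single-end reads were used, per the labels' protocols. Not given in the sources used here are the annotation release, the strand setting and the handling of shared or mouse reads, so counts of overlapping or antisense genes are uncertain. Names of the 10 genes come with the list of identifiers that defines the set. The 140 symbols of 12 further lists (pathway and marker genes) matched 0 identifiers, since the reference tables used here are of mouse, and no list, sequence or position is given.

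Groups follow the titles and treatment labels. Nothing ties libraries to separate mice, so the p-values speak only of variation among these samples, which may be technical. Genes were filtered with filterByExpr (minimum count 10), scaled by TMM and fitted together. The test was edgeR's quasi-likelihood F test (edgeR 4.0.16, R 4.3.3) with Benjamini-Hochberg adjustment and a threshold of 0.05. SEs were derived from the test as the log2 fold change over the root of F, and 95% intervals use its total degrees of freedom (median 14.7). The fit draws each gene's spread toward a trend over genes. For genes that vary more than the trend, FOS, FOSL1 and DUSP1 among them, SEs and intervals can be narrower than their own spread would give. Log2 CPM used a prior count of 2. Correlations with FOS used 100000 permutations, or all arrangements for under 10 libraries and within diets. All 10 genes are named, and the genes most like FOS are capped at 2 identifiers. DESeq2 1.42.0 and limma 3.58.1 (voom with library quality weights) were alternatives. Code was tested on simulated data. The genes, lists and tests were chosen with earlier results of these data known. Libraries of one diet correlated at 0.961 to 0.986 over genes, and no pair agreed within sampling noise.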

Additional observations from a re-analysis of the deposited data

How the results depend on the processing

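No member was called under any of the 19 alternatives (18 for both oils) in DHA oil against control, fish oil against control and both oils against control. In fish oil against DHA oil, leaving low counts unfiltered called 1 member (FOS, log2 fold change 1.14, adjusted p = 0.0380), and the cause was not tested. The replicate block used numbers 1 to 3 and so also left out fish oil replicate 4. The titles do not say that the numbers pair mice, so they were not taken as pairs. Over all genes tested, deviations of same-numbered libraries from their diet means correlated at -0.104 to 0.182. Libraries of different numbers were not compared in this way, so these values cannot show whether the numbers mark pairs. The share of reads on the 10 genes was highest in replicate 3 of each diet (control 0.0606%, DHA oil 0.0499%, fish oil 0.0723%). Under the block edgeR called 0 members. FOS had a log2 fold change of 1.35 between the oils (adjusted p = 0.0868) and of 1.18 against control (adjusted p = 0.0756). Members at an unadjusted p under 0.05 went from 3 to 6 between the oils, beside 4.84% of all genes without the block and 3.71% with it. Leaving out fish oil replicate 4 with no block also gave 6, beside 4% of all genes, and a log2 fold change of 1.42 for FOS.

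Several log2 fold changes, none of them called, changed sign. With DHA oil against control, leaving out 1 library gave FOS -0.48 to 0.20, FOSB -1.12 to 0.21, JUN -0.34 to 0.019, JUNB -0.25 to 0.36, EGR1 -0.28 to 0.29, IER2 -0.011 to 0.23 and DUSP1 -0.075 to 0.30. With fish oil against control it gave FOSB -0.24 to 0.94, FOSL1 -0.17 to 0.34, FOSL2 -0.15 to 0.18, EGR1 -0.22 to 0.38, IER2 -0.094 to 0.24 and IER3 -0.0051 to 0.30. Between the oils it gave JUNB -0.0029 to 0.49, EGR1 -0.17 to 0.33 and IER2 -0.19 to 0.15. With both oils it gave FOSB -0.61 to 0.57, FOSL2 -0.25 to 0.083, JUN -0.032 to 0.22, JUNB -0.030 to 0.47, EGR1 -0.23 to 0.33, IER2 -0.00022 to 0.17 and IER3 -0.15 to 0.14. Limma-voom turned JUNB with DHA oil to -0.057, IER2 between the oils to 0.082, and EGR1 and IER3 with both oils to 0.051 and 0.010. The block turned IER2 between the oils to 0.14, and FOSB, EGR1 and IER3 with both oils to 0.0097, 0.14 and 0.034. Total counts alone turned EGR1 and IER3 with both oils to 0.028 and 0.015. Without fish oil replicates 2 and 4, a choice made after seeing the data, FOSL1 with fish oil was -0.027, IER2 between the oils 0.32, and EGR1 and IER3 with both oils 0.16 and 0.065.

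The median within-diet SD of the members stayed between 0.37 and 0.46 over all alternatives. Without fish oil replicate 4 that of FOS was 0.50 and that of IER2 0.26, and without fish oil replicates 2 and 4 that of IER2 was 0.19. All 10 members stayed above the median of all genes except without control replicate 2 (8), control replicate 3 (9) or fish oil replicate 3 (9). With 3 or 4 libraries a diet, the members' intervals had a median half-width of 0.54 on the log2 scale between the oils, which limits the differences that could be detected. In the correlations with FOS, taking deviations from the diet means with free permutation called 4 members and permuting within diets called 0. The latter scheme was added after the first result was seen, and its few arrangements left little room for any call. The other alternatives called 0.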
